A study of Mus musculus with 6 samples.

Results

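Transcripts that mark macrophages, monocytes and dendritic cells were examined in regulatory T cell (Treg) preparations from mice. The members were 36 genes listed by name, and each was read from the probe set with the highest mean over the 6 arrays among those that carry its symbol alone. Of these, 34 had such a probe set, out of 12393 genes measured in that way, and Fpr1 and Siglech were left out. CD4+CD25+ T cells, the fraction that holds most Treg, were collected with magnetic beads from wild type C57BL/6 mice (3 samples) and from HDAC9-/- mice (3 samples), whose strain is also given as C57BL/6. HDAC9 is a class IIa histone deacetylase. The sources used here do not give the allele behind HDAC9-/-, the age of the mice or whether samples were pooled from several animals. All p-values therefore measure the spread among 3 samples a genotype, which may be technical. Each sample was hybridised to 1 array, and values are log2 signals. Differences are HDAC9-/- minus wild type on that log2 scale, and errors after ± are SD with n = 3.

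Macrophages, monocytes and dendritic cells form the mononuclear phagocytes, which take up particles, sense microbes and present antigen. Their identity is set by the transcription factor PU.1, encoded by Spi1, together with C/EBP factors, and their survival depends on receptors for growth factors such as M-CSF and Flt3 ligand. They are not T cells, but they lie next to T cells in spleen and lymph nodes, and some carry over when cells are separated with magnetic beads. Several genes of the group are not theirs alone. B cells also express Fcgr2b, Ly86, Ctss and Mpeg1, and natural killer cells express Fcgr3, Fcer1g, Tyrobp and Itgam. Neutrophils express Csf3r, Fpr2, Lyz2 and Itgam among others.

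Of 5 Treg markers 4 were brighter than the typical probe set, and Ikzf2, a factor of many Treg, was dim at 4.36 to 5.29. Foxp3, the factor that defines Treg, ranged from 10.29 to 10.38 among wild type and from 10.33 to 10.44 among HDAC9-/- arrays. Il2ra, which encodes CD25, ranged from 9.45 to 9.54 and from 9.34 to 9.42. The CD4 T cell genes Cd4 and Cd3e differed by -0.07 and -0.05 (limma, adjusted p = 0.802 and 0.870). The arrays were of similar quality in most respects, but wild type replicate 3 had the lowest mean correlation with the other arrays, 0.991 against 0.994 to 0.996. RNA integrity can be read from Gapdh, whose 3-prime control signal exceeded its 5-prime one by 0.03 to 0.11 on wild type arrays and by 0.15 to 0.28 on HDAC9-/- arrays, without overlap. For actin the excess was 0.33 to 0.46 and 0.42 to 0.60. The part of this shift in the results given here was not tested.

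Nearly the whole group read higher in HDAC9-/- samples, by small amounts, and no gene passed on its own. The members were chosen with earlier results of these data known, so the counts below describe them and are not an independent test. The difference was positive for 33 of 34 members (97.1%; 32 with array medians aligned), with a median of 0.33, while 52.2% of all probe sets had a positive difference and the median over all 22626 probe sets was 0.01. None of the 34 members passed an adjusted p of 0.05 (limma with Benjamini-Hochberg adjustment over all probe sets), and 0.0133% of all probe sets did. The smallest adjusted p of a member was 0.311, for Fpr2. At an unadjusted p below 0.05, 10 members were higher and 0 lower, where 5.55% of all probe sets were higher and 3.23% lower. The genotypes did not overlap for 9 members, all higher in HDAC9-/- samples (26.5%), where 11.0% of all probe sets did so in that direction and 6.04% in the other. Of the 12393 genes read by their brightest probe set, 54.0% had a positive difference. Of these genes 6.12% were higher at an unadjusted p below 0.05, and 12.5% were higher without overlap. With dim probe sets left out, 6 of 23 members and 10.8% of all probe sets were higher at that p. The RNA came from whole cell fractions. A larger number of phagocytes, more RNA per phagocyte and expression of the members by other cells therefore cannot be told apart.

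These counts depended on single arrays. The number of members without overlap was 22 without HDAC9-/- replicate 3 (16.7% of all probe sets) and 17 without wild type replicate 3 (16.1% of all probe sets). The number with an unadjusted p below 0.05, all of them higher, was 20 without HDAC9-/- replicate 3 and 16 without wild type replicate 3, where 4.31% and 5.26% of all probe sets were higher at that p. It was 5 without HDAC9-/- replicate 2 (4.14% of all probe sets), 4 without wild type replicate 1 (4.81%) and 4 without HDAC9-/- replicate 1 (3.42%). The number with a positive difference ranged from 29, without wild type replicate 1, to 34. The median difference stayed between 0.23 and 0.42 over the 6 arrays left out in turn, and no member passed the adjusted threshold in any of these fits.

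**Figure D1:**
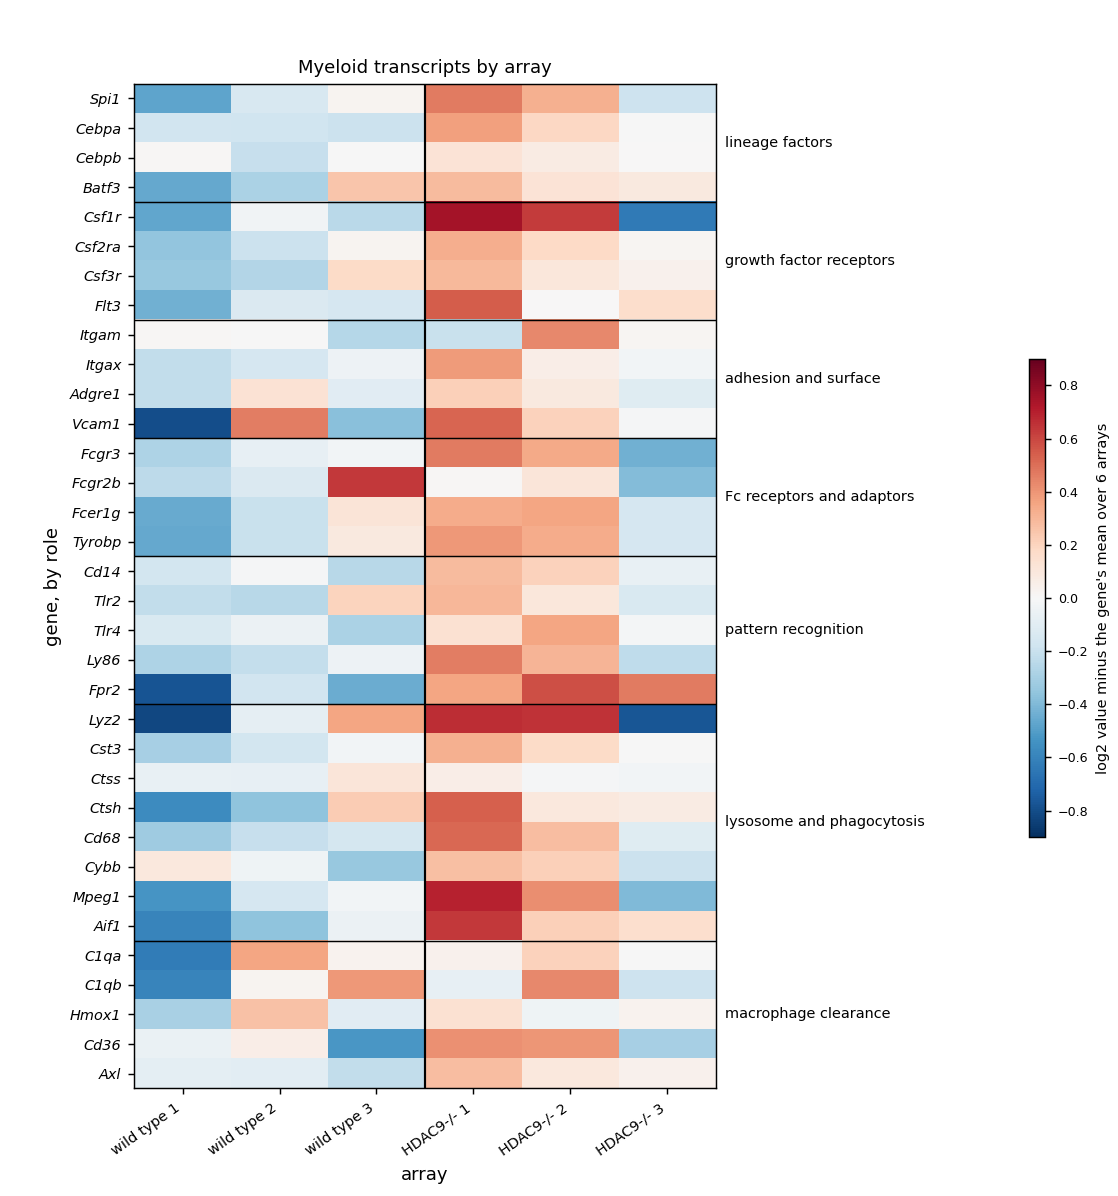
Deviation of each log2 value from the mean of its gene for 34 genes (rows, by role) and 6 arrays (columns), red above and blue below that mean. HDAC9-/- replicates 1 and 2 are red for most genes, wild type replicate 1 is blue for most, and HDAC9-/- replicate 3 lies near the wild type arrays for many genes.

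All 4 lineage factors had positive differences, with a median of 0.35. Cebpa, which encodes C/EBP alpha and directs granulocyte and monocyte fate, had the least spread in wild type. Given here and below in the order of replicates 1 to 3, it read 6.41, 6.40 and 6.39 on the wild type arrays and 6.95, 6.76 and 6.57 on the HDAC9-/- arrays. Every HDAC9-/- array thus lay above every wild type array. The difference was 0.36, its standard error 0.10 and its adjusted p 0.445 (limma). Cebpb, the related factor C/EBP beta, which activated T cells and many other cells also use, read 9.02, 8.81 and 9.01 in wild type and 9.14, 9.09 and 9.02 in HDAC9-/- samples. Its groups overlapped, and its difference was 0.13 (95% confidence interval -0.07 to 0.34). The difference of Spi1, the PU.1 gene, was 0.40 with a standard error of 0.20. That of Batf3, a factor of cross-presenting dendritic cells, was 0.33 with an error of 0.18. Both overlapped between genotypes, and both had their lowest value in wild type replicate 1.

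PU.1 binds DNA at purine-rich sites around the core GAGGAA, so the promoters of the members were searched for these letters. Promoters were taken from RefSeq on assembly GRCm38.p6 and ran from 250 bases before to 50 bases after the gene's start. Of the 34 measured members 24 had a promoter there, 25 promoters in all. GAGGAA stood on either strand in 14 of these 25 promoters (56%) and in 28.3% of all 32851 promoters. The longer form GAGGAAGT, which contains the shorter one, stood in 1 of 25 (4%), that of Ctss, and in 3.20% of all promoters. In Ctss the longer form did not lie wholly before the start, and it is not the match marked below. A match describes the sequence and does not show binding. The windows below come from the 4 members with the highest mean signal that held the core before their start, and are shown because they place the core relative to each gene. Each has 120 bases, 5′ to 3′ on the strand of the gene, with GAGGAA or its complement TTCCTC in capitals.
Ctss: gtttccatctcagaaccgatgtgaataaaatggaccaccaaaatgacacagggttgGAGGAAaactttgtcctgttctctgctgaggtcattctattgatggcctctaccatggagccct
Cst3: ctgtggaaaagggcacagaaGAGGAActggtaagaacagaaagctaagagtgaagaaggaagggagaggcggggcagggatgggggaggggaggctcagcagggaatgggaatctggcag
Axl: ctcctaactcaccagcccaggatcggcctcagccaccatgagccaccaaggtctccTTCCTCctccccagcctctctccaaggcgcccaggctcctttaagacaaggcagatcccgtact
Csf3r: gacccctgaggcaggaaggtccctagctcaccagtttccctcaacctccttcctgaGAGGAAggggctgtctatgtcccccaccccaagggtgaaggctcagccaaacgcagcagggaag
The Ctss window is chr3:95526566-95526685 on the plus strand and the Csf3r window is chr4:126024517-126024636 on the plus strand. The Cst3 window is chr2:148875643-148875762 and the Axl window chr7:25788800-25788919, both on the minus strand. All lie upstream of the annotated start, with the core beginning 164 bases before it in Ctss, 230 in Cst3, 130 in Axl and 86 in Csf3r. The 4 genes did not behave alike on the arrays. Cst3 and Axl were among the 9 members without overlap, Csf3r overlapped, and Ctss had the smallest difference of all members.

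All 4 growth factor receptor genes had positive differences, with a median of 0.41. Csf1r, the receptor for M-CSF that macrophages need, read 7.18, 7.62 and 7.40 in wild type and 8.39, 8.28 and 7.01 in HDAC9-/- samples. HDAC9-/- replicates 1 and 2 stood above all wild type arrays, while replicate 3 stood below them all. The difference of 0.50 therefore had a standard error of 0.36 and an interval from -0.35 to 1.34 (adjusted p = 0.687). It was 0.94 without HDAC9-/- replicate 3 and 0.25 without HDAC9-/- replicate 1. The other probe sets of Csf1r had the same order of arrays within HDAC9-/-, with differences of 0.27 and 0.19.

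Flt3, the receptor of dendritic cells and their progenitors, was not low in HDAC9-/- replicate 3, unlike Csf1r. It read 6.23, 6.53 and 6.51 in wild type and 7.20, 6.67 and 6.82 in HDAC9-/- replicates 1 to 3. No HDAC9-/- array fell within the wild type range. The difference was 0.47 with a standard error of 0.16 (adjusted p = 0.517). Csf2ra, the alpha chain of the GM-CSF receptor, differed by 0.35 with an interval from 0.05 to 0.64. Its other, dimmer probe set differed by 0.14 with an interval from -0.12 to 0.41. Csf3r, the G-CSF receptor of neutrophils and monocytes, differed by 0.29 with an interval from -0.06 to 0.64. Both genes overlapped between genotypes.

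The 8 genes of lysosomes and phagocytosis all had positive differences, apart from Ctss with array medians aligned, with a median of 0.41 and a range from 0.02 to 0.67. Lyz2, which encodes lysozyme and is carried by monocytes, macrophages and neutrophils, varied most within both genotypes of the genes in this group. It read 9.18, 9.92 and 10.36 in wild type and 10.67, 10.66 and 9.24 in HDAC9-/- samples. The lowest array of each genotype lay more than 1 log2 unit below the highest of the same genotype, and both genotypes had an array at the low end. The difference of 0.36 had a standard error of 0.45 (adjusted p = 0.812). It was 0.84 without HDAC9-/- replicate 3 and 0.04 without wild type replicate 1, so its size rested on which arrays were kept.

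Cst3, which encodes the protease inhibitor cystatin C and is abundant in dendritic cells, read 10.33, 10.47 and 10.61 in wild type and 10.96, 10.81 and 10.63 in HDAC9-/- replicates 1 to 3. Its lowest HDAC9-/- array was just above its highest wild type array. The difference was 0.33 with a standard error of 0.11 (adjusted p = 0.529). Cd68, a lysosomal membrane protein of macrophages, read 6.01, 6.12 and 6.18 in wild type and 6.85, 6.61 and 6.22 in HDAC9-/- samples, again without overlap and with a narrow gap at replicate 3. Its difference was 0.46 with a standard error of 0.16 (adjusted p = 0.531).

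Aif1, an actin-binding protein of macrophages known as Iba1, had the second largest difference of all members. It read 4.32, 4.56 and 4.86 in wild type and 5.56, 5.13 and 5.07 in HDAC9-/- samples. The groups did not overlap, and the difference was 0.67 with a standard error of 0.18 (adjusted p = 0.439), a ratio of 1.59. It was dim, with a mean of 4.92 where the typical probe set read 5.76, and signals in that range are compressed. Ctss, the lysosomal protease cathepsin S, is also strong in B cells. It read 12.03, 12.02 and 12.20 in wild type and 12.15, 12.08 and 12.07 in HDAC9-/- samples. Its groups overlapped, and its difference of 0.02 had an interval from -0.17 to 0.20. That sign turned with array medians aligned and in 3 of the fits that left out an array.

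Of the remaining genes of this kind, Ctsh, the protease cathepsin H, differed by 0.47, and Mpeg1, the pore-forming protein perforin-2 of phagocytes and B cells, by 0.47. Cybb, the catalytic subunit of the phagocyte NADPH oxidase, differed by 0.19. These 3 overlapped between genotypes, and their adjusted p-values were 0.601 to 0.729 (limma).

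All 5 measured genes of pattern recognition had positive differences, with a median of 0.32. Fpr2, a formyl peptide receptor that guides neutrophils and monocytes to microbes, had the largest difference of the group. It read 4.90, 5.51 and 5.23 in wild type and 6.03, 6.26 and 6.15 in HDAC9-/- samples. All HDAC9-/- arrays stood clear of the highest wild type array. The difference was 0.93 with a standard error of 0.16 and an interval from 0.56 to 1.30 (adjusted p = 0.311), a ratio of 1.91. It ranged from 0.78 to 1.08 with single arrays left out.

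Cd14, the co-receptor for lipopolysaccharide on monocytes, was dim. It read 4.15, 4.30 and 4.07 in wild type and 4.60, 4.52 and 4.24 in HDAC9-/- samples. HDAC9-/- replicate 3 lay inside the wild type range. The difference was 0.28 with a standard error of 0.11 (adjusted p = 0.557). Tlr4, the receptor for lipopolysaccharide, was also dim, with a mean of 4.34. It differed by 0.32 without overlap (0.15 in its other probe set). Tlr2, which senses bacterial lipoproteins, differed by 0.18, and Ly86, the partner of the Toll-like protein RP105, by 0.36. The adjusted p-values of these 3 genes were 0.543 to 0.747.

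**Figure D2:**
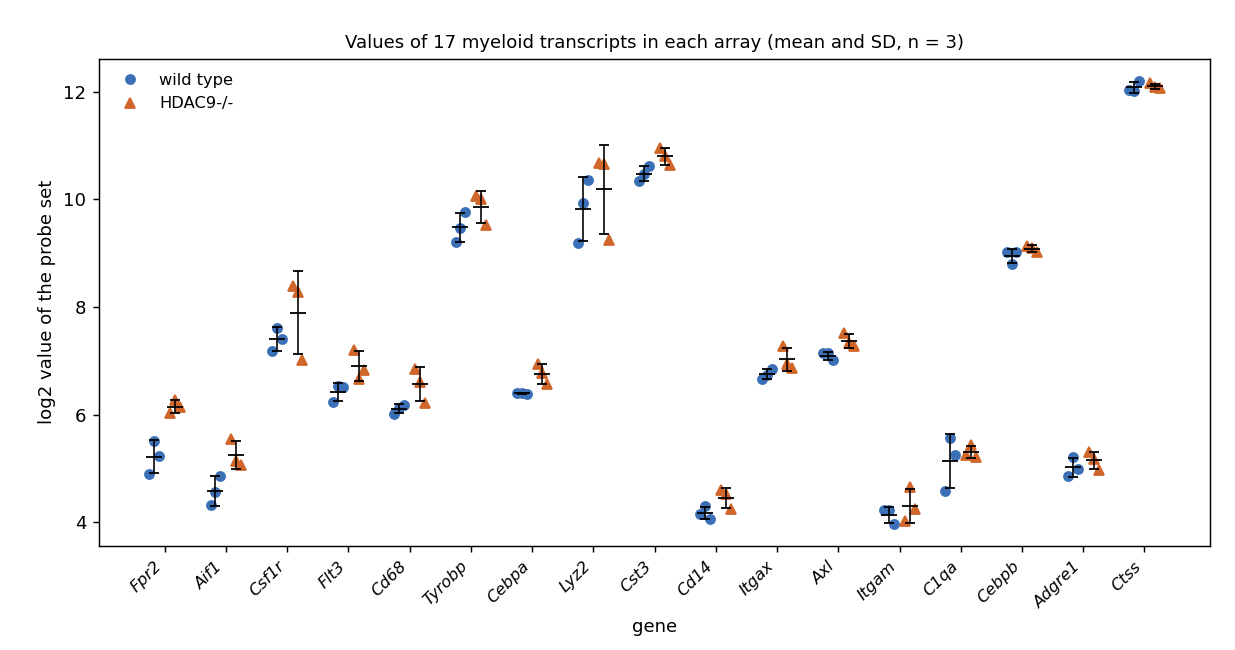
Log2 values of 17 genes (x axis, by falling difference) in each array, circles for wild type and triangles for HDAC9-/-, with replicates 1 to 3 from left to right in each group. Black bars give the mean and SD (n = 3), and the triangles of Csf1r and Lyz2 show HDAC9-/- replicate 3 lowest, at 7.01 and 9.24.

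The Fc receptor genes and their signalling adaptors gave the only negative difference among the members, that of Fcgr2b, which Ctss joined with array medians aligned. Fcer1g and Tyrobp encode small membrane adaptors (the Fc receptor gamma chain and DAP12) through which many myeloid and natural killer cell receptors signal. Tyrobp read 9.21, 9.47 and 9.76 in wild type and 10.06, 10.01 and 9.52 in HDAC9-/- replicates 1 to 3. HDAC9-/- replicate 3 lay among the wild type arrays. The difference was 0.38 with a standard error of 0.19 (adjusted p = 0.605). Fcer1g differed by 0.36 with the same order of arrays in wild type, and Fcgr3, which encodes an activating receptor for IgG, by 0.25 with HDAC9-/- replicate 3 below all wild type arrays.

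Fcgr2b, the inhibitory receptor for IgG that B cells share with myeloid cells, was read by 4 probe sets that disagreed. The brightest, which the rule took, read 7.67, 7.77 and 8.54 in wild type and 7.92, 8.02 and 7.51 in HDAC9-/- samples. Wild type replicate 3 stood apart at the high end. The difference was -0.18 with an interval from -0.77 to 0.41 (adjusted p = 0.835), while the other 3 probe sets had differences of 0.42, 0.39 and 0.16. All 34 members had positive differences, Fcgr2b included, without wild type replicate 3, with array weights and when the probe sets of each gene were averaged. Over the 9 members with more than 1 probe set, Vcam1 and Cd36 also had a dimmer probe set of opposite sign, at -0.07 and -0.05. Of all 49 probe sets of the members, 46 had a positive difference.

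The adhesion and surface genes had positive differences for 4 of 4 members, with a median of 0.22. Itgax, the integrin chain CD11c of dendritic cells, read 6.66, 6.74 and 6.84 in wild type and 7.27, 6.94 and 6.86 in HDAC9-/- samples. The groups were barely separate, and the difference was 0.28 with a standard error of 0.12 (adjusted p = 0.576). Itgam, the integrin chain CD11b of monocytes and neutrophils, was dim and read 4.23, 4.22 and 3.97 in wild type and 4.02, 4.65 and 4.24 in HDAC9-/- samples. HDAC9-/- replicate 2 stood clear of the wild type arrays, replicate 3 lay at their upper end and replicate 1 among them. The difference of 0.17 was -0.01 without HDAC9-/- replicate 2. Adgre1, the macrophage marker F4/80, read 4.86, 5.22 and 4.99 in wild type and 5.30, 5.17 and 4.98 in HDAC9-/- samples. Its difference of 0.13 had an interval from -0.16 to 0.42, and its groups overlapped. Vcam1, an adhesion molecule that red pulp and marrow macrophages carry along with stromal cells, differed by 0.48 with an SD of 0.64 in wild type.

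Genes with which resident macrophages clear dying cells, lipids and haem had the smallest median of the groups, 0.16, with positive differences for 5 of 5. C1qa, a chain of complement C1q made by tissue macrophages, read 4.59, 5.57 and 5.25 in wild type and 5.26, 5.43 and 5.21 in HDAC9-/- samples. The HDAC9-/- values fell within the wild type range, whose low end was replicate 1. The difference was 0.16 (adjusted p = 0.841) and turned to -0.11 without wild type replicate 1. C1qb, its partner chain, differed by 0.11. Axl, a receptor for apoptotic cells, read 7.14, 7.14 and 7.01 in wild type and 7.51, 7.32 and 7.27 in HDAC9-/- samples. It was the 1 gene of this kind whose genotypes did not overlap. The difference was 0.27 with a standard error of 0.09 (adjusted p = 0.508). Hmox1, haem oxygenase 1, which Treg can also express, differed by 0.09, and Cd36, a scavenger receptor, by 0.34.

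**Figure D3:**
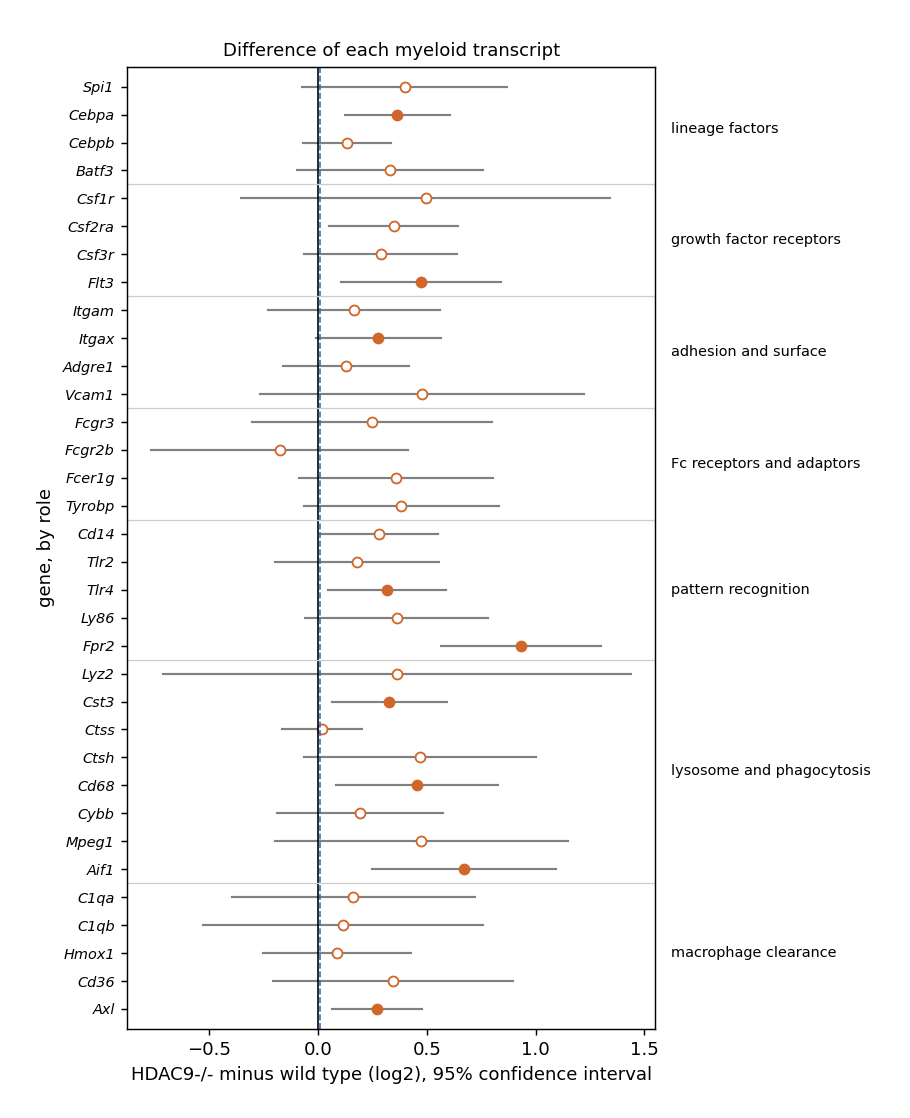
Difference of each of the 34 genes (log2, HDAC9-/- minus wild type) with its 95% confidence interval from limma, by role. Filled circles mark the 9 genes whose genotypes did not overlap, open circles the others, and the dashed line the median over all probe sets; 10 intervals lie above 0 and 24 hold 0.

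The members varied together within each genotype. Wild type replicate 1 was the lowest wild type array for 24 of 34 members (70.6%) and for 25.4% of all probe sets. HDAC9-/- replicate 3 was the lowest HDAC9-/- array for 30 of 34 (88.2%) and for 38.8% of all probe sets. HDAC9-/- replicate 1 was the highest for 27 of 34 (79.4%), against 39.5% of all probe sets. The median SD was 0.24 in wild type and 0.26 in HDAC9-/- samples for the members, and 0.12 and 0.10 for all probe sets.

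Among the HDAC9-/- arrays, the excess over wild type thus came mainly from replicates 1 and 2. The low wild type replicate 1 added to it. The median difference of 0.33 fell to 0.25 without wild type replicate 1. It fell to 0.23 without HDAC9-/- replicate 1 and to 0.29 without HDAC9-/- replicate 2. HDAC9-/- replicate 1 stood above all 3 wild type arrays for 28 members and replicate 2 for 24. Replicate 3 did so for 10, lay within the wild type range for 21 and below it for 3. The median distance from the wild type mean was 0.51, 0.36 and 0.07 in HDAC9-/- replicates 1 to 3. The drop in replicate 3 differed between genes. Set against the mean of replicates 1 and 2, it was 1.43 lower for Lyz2, 1.32 lower for Csf1r, 0.95 lower for Mpeg1 and 0.84 lower for Fcgr3. For Hmox1, Ctss and Fpr2 it was lower by 0.05 or less.

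**Figure D4:**
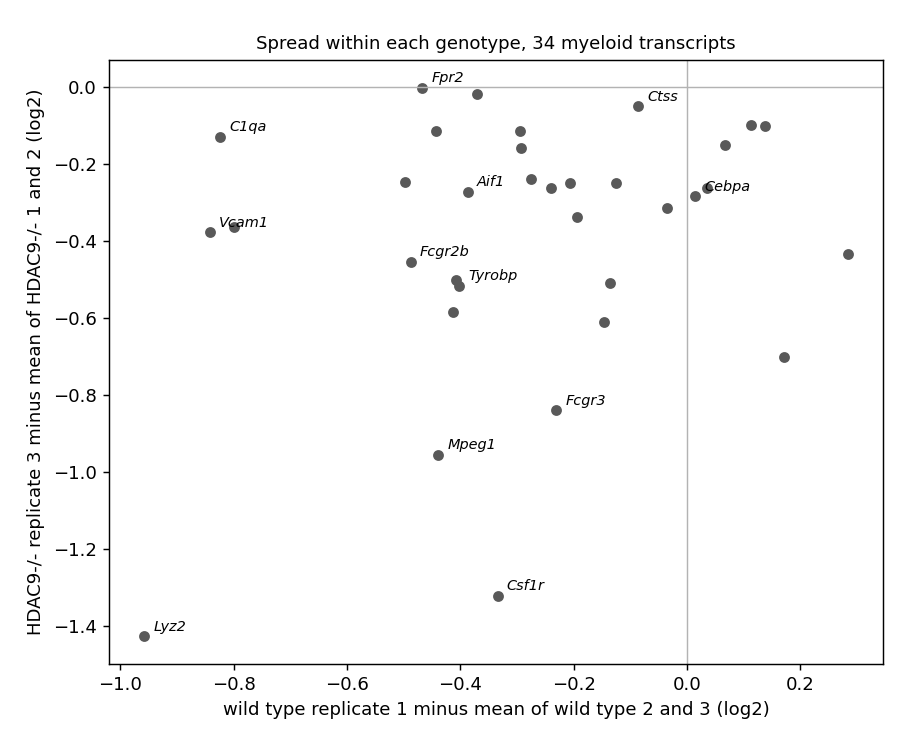
For each of the 34 genes, the value in wild type replicate 1 minus the mean of wild type replicates 2 and 3 (x axis) against the value in HDAC9-/- replicate 3 minus the mean of HDAC9-/- replicates 1 and 2 (y axis), both in log2. All points lie at or below 0 on the y axis, with Lyz2 and Csf1r lowest, and Fpr2 lies at 0 there but at -0.47 on the x axis.

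The score of the group, the mean deviation of its 34 genes from their own means, summed up this order. In wild type it was -0.34, -0.09 and -0.04, and in HDAC9-/- samples 0.33, 0.24 and -0.10. The score of HDAC9-/- replicate 3 fell among the wild type scores. The genotype means were -0.16 ± 0.16 and 0.16 ± 0.23. Without the members that B, T or natural killer cells are also known to express, all 19 genes left had positive differences, with a median of 0.34. Fcgr2b, the only member with a negative difference, was among those left out, so the positive signs followed from its removal.

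Other genes of macrophages and monocytes, none of them members, followed the same order of arrays with smaller values. Differences were positive for 21 of 28 measured genes and the median was 0.19. The 2 genes with the smallest p were Chil3, which encodes Ym1, a secreted lectin (1.46, adjusted p = 0.398), and Clec4d, a C-type lectin receptor (0.34, adjusted p = 0.531). Chil3 itself did not follow that order. It read 6.61, 7.89 and 7.54 in wild type and 8.68, 8.90 and 8.83 in HDAC9-/- replicates 1 to 3. Its HDAC9-/- replicate 3 was thus not low, as with the neutrophil genes below. The list score was -0.27, -0.04 and -0.01 in wild type and 0.23, 0.17 and -0.08 in HDAC9-/- replicates 1 to 3. Other dendritic cell genes had positive differences for 13 of 19 and a median of 0.08. Ccl17, a chemokine of mature dendritic cells, differed by 0.58 (adjusted p = 0.450), and Irf8, a factor of dendritic and B cells, by 0.34 (adjusted p = 0.495). No gene of either list passed the adjusted threshold. At an unadjusted p below 0.05 (limma), 4 of 28 and 3 of 19 genes were higher, against 5.55% of all probe sets. At that p 0 and 1 were lower, against 3.23%. Without overlap, 2 of 28 (7.14%) and 2 of 19 (10.5%) were higher, against 11.0% of all probe sets. In the other direction it was 1 of each list, against 6.04%.

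Markers of neutrophils and of B cells showed 2 different orders of arrays. Neutrophil genes had positive differences for 11 of 11, with a median of 0.96 and scores of -0.86, -0.11 and -0.17 in wild type and 0.23, 0.53 and 0.38 in HDAC9-/- replicates 1 to 3. Their HDAC9-/- replicate 3 was thus not low, as with Fpr2, and their wild type replicate 1 was the lowest array. Ltf and S100a9, which encode a granule protein and a calprotectin chain, had the smallest p of this list, with differences of 1.22 and 1.01 (adjusted p = 0.423 and 0.445). Their mean level over the list ran from 6.57 to 7.32 on wild type arrays and from 7.67 to 7.97 on HDAC9-/- arrays. B cell genes had scores of 0.08, -0.13 and -0.02 in wild type and 0.31, 0.11 and -0.35 in HDAC9-/- replicates 1 to 3, and a median difference of 0.09 with 4 of 6 positive. Here HDAC9-/- replicate 3 was the lowest of all arrays, as it was for Csf1r. Wild type replicate 1, lowest in the score of the members, was here the highest wild type array. Their mean level ran from 6.89 to 7.11 and from 6.67 to 7.33. Of this list Pax5, a B cell factor, differed by -0.23 and Cd79b, a chain of the B cell receptor, by 0.24 (adjusted p = 0.508 and 0.725). Pax5 was dim, with a mean of 4.03, while Cd79b had a mean of 8.17.

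MHC class II genes, which present antigen in dendritic cells, macrophages and B cells, had positive differences for 6 of 6 and a median of 0.23. Their scores were -0.23, -0.17 and 0.12 in wild type and 0.34, 0.12 and -0.18 in HDAC9-/- replicates 1 to 3, so HDAC9-/- replicate 3 was low here too. H2-DMa, which loads peptides, differed by 0.28 and H2-Eb1 by 0.25 (adjusted p = 0.520 and 0.720). CD8 T and natural killer cell markers had a median of 0.17 with 5 of 8 positive. Their scores were -0.16, -0.15 and 0.04 in wild type and 0.25, 0.13 and -0.11 in HDAC9-/- replicates 1 to 3. As for the members, HDAC9-/- replicate 1 was highest and HDAC9-/- replicate 3 fell among the wild type scores. CD4 T cell and Treg markers had medians of -0.05 and 0.03, plasma cell markers -0.11 and the 2 measured red cell markers -0.13. How far neutrophils, B cells or natural killer cells in the fraction contributed to the members that they share was not tested.

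**Figure D5:**
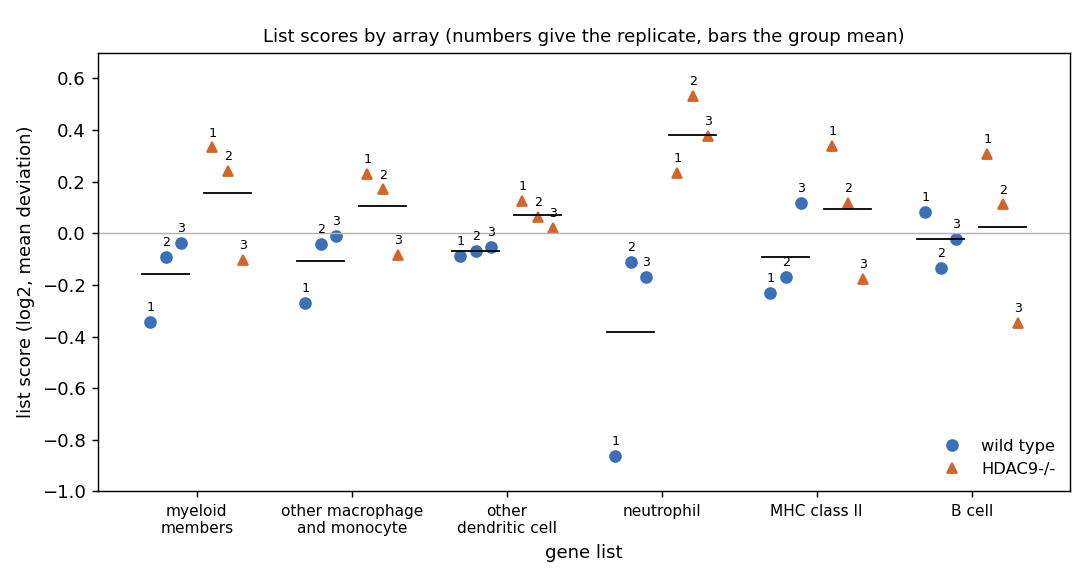
Score of 6 gene lists (x axis) in each array (y axis, mean log2 deviation of the list's genes from their own means), circles for wild type and triangles for HDAC9-/-, numbered by replicate, with bars at the group means. HDAC9-/- replicate 3 lies at -0.10 for the myeloid members and -0.35 for B cell genes but at 0.38 for neutrophil genes.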

How the data were processed

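Total RNA of 6 samples was labelled with biotin after amplification and hybridised to Affymetrix arrays, per the labels' protocols. The deposited log2 values, 1 for each probe set on each array, are the authors' RMA output, per the submitters' processing notes. No source used here gives the RMA version or settings. RMA compresses dim signals, which understates their fold changes. Of 22690 probe sets, 64 controls were left out and 22626 were tested without a brightness filter. Of these 20380 carried 1 gene symbol, 691 several and 1555 none, and only the first kind was named, with symbols updated through the Entrez identifier for 20351.

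Genotypes were compared with limma 3.58.1 (lmFit and eBayes) in R 4.3.3, with Benjamini-Hochberg adjustment over all probe sets. The fit was tested on simulated data. Lists and scores are described without a test. The members and lists were chosen with earlier results of these data known. Values in every array are printed for the 6 members with the smallest p, the 5 with the highest mean and 10 defining markers, 1 of which (Siglech) was not measured; for other lists the 2 genes with the smallest p are named. Alternatives tried were renormalization, aligned medians, a brightness filter, another variance prior, weighting of arrays, a block for the replicate number, other probe set rules, shorter member lists and leaving out each array. Promoter sequences are RefSeq's (GRCm38.p6). No genome build is named for the expression values. Plots were made in Python 3.11.15 with matplotlib 3.10.9.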

Additional observations from a re-analysis of the deposited data

How the results depend on the processing

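No member passed the adjusted threshold in any of the alternatives, including an adjusted p of 0.10; at an unadjusted p of 0.05 the number was 10. It was 19 with array weights, where 6.69% of all probe sets were higher at that p. The median difference and the score difference moved by less than the spread between replicates in every alternative that gave them. The number of members whose genotypes do not overlap ranged from 9 to 22 with 1 array left out, with 17 and 22 without wild type replicate 3 and HDAC9-/- replicate 3. A smaller group has less room to overlap, so counts with an array left out rise by construction. The number without overlap was 6 with array medians aligned, 6 of 23 with dim probe sets left out, and 8 with quantile normalization or averaged probe sets. The share of all probe sets without overlap was not taken under these settings, so these counts have no background beside them. At an unadjusted p below 0.05, 8 members were higher with medians aligned, against 3.83% of all probe sets. With dim probe sets left out it was 6 of 23, against 10.8%. The difference of Ctss turned to -0.0069 with array medians aligned, and ranged from -0.0127 to 0.079 with 1 array left out. Those of Itgam and C1qa ranged from -0.0078 to 0.31 and from -0.11 to 0.38. Aligning medians moved the median of all probe sets from 0.01 to -0.02. Samples that share a replicate number did not deviate together (correlations of 0.04, 0.10 and -0.25), so the number was not taken as pairing. With the replicate block 0 members passed and 9 had an unadjusted p below 0.05, all higher, as had 4.33% of all probe sets. The number of arrays, 3 a genotype, limits the precision.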

Other observations

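Among the dendritic cell and macrophage genes that are not members, 3 were picked here after their values were seen. Ccl22, a chemokine that mature dendritic cells and macrophages release and that attracts Treg, had the largest difference of the dendritic cell list, 0.86, with groups that overlapped. Id2, a factor that dendritic cells share with T cells and natural killer cells, differed by -0.47 without overlap. Ms4a7, a membrane protein of macrophages, differed by -0.23, also without overlap. None passed the adjusted threshold (limma).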
